A study of Mus musculus with 18 samples.

Results

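The solute carriers Slc6a13, Slc6a20a, Slc13a4, Slc22a6, Slc22a8 and Slc47a1, known from the meningeal barrier of the brain, were read in mice with a conditional knockout of Brca1 in the neural lineage. The 6 genes were named with earlier results of these data known, so their calls are not those of an unselected set. All probe sets that the array annotation assigns to exactly 1 of them were taken. This gave 6 of the 18193 genes named on the arrays and 8 of the 45037 probe sets: 2 each for Slc22a6 and Slc22a8, and 1 for each of the other genes. The A chip holds 7 of them, for 5 genes. The B chip holds the remaining one, for Slc13a4, and the array used for the rest samples holds all 8.

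The 18 arrays form 6 groups of 3, all from mice at postnatal day 7. Wild-type mice were compared with conditional knockouts, whose floxed Brca1 allele (exons 5 to 13) lay over a null one made by a neo cassette, inverted, at exon 11. Nestin, a gene of neural progenitors, lent its promoter to Cre, and the labels do not say whether the wild-type mice carried Cre. Cortex was read on the A and B chips, and samples called rest (source P7 brain) on another array type. The labels give neither the tissue meant by rest nor whether arrays with the same number come from 1 animal. The labels do not say that replicates are separate animals for every group either, so the p-values measure only the spread between these arrays, which may be technical.

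Solutes reach the brain and the cerebrospinal fluid across several cell layers: the endothelium of brain vessels, the epithelium of the choroid plexus, and the arachnoid, the middle layer of the meninges. Fibroblasts of the pia and arachnoid and the arachnoid barrier cells carry their own set of transporters, which take up or clear amino acids, inorganic sulfate, organic anions and organic cations. Slc6a13 encodes the GABA transporter GAT2, which takes up GABA and taurine. Slc6a20a encodes a sodium-coupled carrier of proline and other imino acids. Slc13a4 encodes a sodium and sulfate cotransporter. Slc22a6 and Slc22a8 encode the organic anion transporters OAT1 and OAT3, which exchange dicarboxylates for drugs, toxins and metabolites, and Slc47a1 encodes MATE1, which exchanges protons for organic cations. Several of these genes are also known from the kidney tubule, and some from the choroid plexus.

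The bases before the start sites of these carriers are shown for what they share. Not all of the carriers are unrelated: Slc6a13 and Slc6a20a are both SLC6 carriers, and Slc22a6 and Slc22a8 are both SLC22 carriers. The RefSeq promoter table (GRCm38.p6) held 5 of the 6 genes, with 7 start sites, and the 250 bases before each start were searched on both strands for 6 motifs. The windows below hold at least 1 match to GTTAAT (part of the site of the HNF1 factors of kidney and liver epithelium), CAGCTG (an E-box) or CCTGCTG (a Zic motif). Matches are in capitals, also where they lie on the other strand as ATTAAC or CAGCAGG, and each window is read 5′ to 3′ along its gene. They lie at chr6:121300490-121300739 on the plus strand for Slc6a13 (the second of its 3 start sites), chr9:123678833-123679082 on the minus strand for Slc6a20a, chr19:8592932-8593181 on the plus strand for Slc22a8, chr19:8617746-8617995 on the plus strand for Slc22a6 and chr6:35308127-35308376 on the minus strand for Slc13a4.
Slc6a13: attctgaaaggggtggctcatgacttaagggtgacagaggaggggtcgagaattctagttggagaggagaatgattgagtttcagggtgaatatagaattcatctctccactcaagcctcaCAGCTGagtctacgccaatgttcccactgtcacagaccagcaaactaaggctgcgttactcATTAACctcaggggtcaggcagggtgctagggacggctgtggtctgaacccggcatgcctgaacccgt
Slc6a20a: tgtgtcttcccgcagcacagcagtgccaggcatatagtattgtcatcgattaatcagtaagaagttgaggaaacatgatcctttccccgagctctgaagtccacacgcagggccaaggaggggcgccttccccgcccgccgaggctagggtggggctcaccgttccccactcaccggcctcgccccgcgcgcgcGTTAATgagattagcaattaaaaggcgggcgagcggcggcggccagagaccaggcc
Slc22a8: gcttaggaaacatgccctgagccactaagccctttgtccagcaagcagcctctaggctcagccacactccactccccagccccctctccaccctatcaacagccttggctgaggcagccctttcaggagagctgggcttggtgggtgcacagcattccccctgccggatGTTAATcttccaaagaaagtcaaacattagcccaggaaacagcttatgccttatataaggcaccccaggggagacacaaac
Slc22a6: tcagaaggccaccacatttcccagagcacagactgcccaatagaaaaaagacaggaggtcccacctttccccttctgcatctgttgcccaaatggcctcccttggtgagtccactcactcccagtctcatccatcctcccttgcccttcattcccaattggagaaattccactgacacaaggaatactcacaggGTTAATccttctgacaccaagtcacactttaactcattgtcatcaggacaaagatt
Slc13a4: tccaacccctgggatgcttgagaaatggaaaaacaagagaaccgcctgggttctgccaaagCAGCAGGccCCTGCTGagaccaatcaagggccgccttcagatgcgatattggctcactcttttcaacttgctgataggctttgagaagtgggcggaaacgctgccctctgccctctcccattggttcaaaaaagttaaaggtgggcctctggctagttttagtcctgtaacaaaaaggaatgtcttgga

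The HNF1 motif lay in 4 of the 7 windows, those of Slc6a13, Slc6a20a, Slc22a8 and Slc22a6, against 6.43% of all 32851 windows of this length in the table. These genes are the SLC6 pair and the SLC22 pair, so they are not 4 unrelated genes. In Slc6a20a and in Slc22a6 the motif occupied the same place, 56 to 51 bases before the start. In Slc22a8 it lay 81 to 76 bases before the start, and in Slc6a13, on the other strand, 68 to 63 bases before it. Slc13a4 held 2 Zic matches, one on each strand, at 189 to 183 and at 180 to 174 bases before its start, and 8.44% of all windows held at least 1. The E-box in the Slc6a13 window lay 129 to 124 bases before the start, and 13% of all windows held one. A further Slc6a13 start site held the nuclear receptor motif AGGTCA, which occurred in 14% of all windows. The forkhead motif TGTTTAC (3.17% of all windows) and the T-box motif AGGTGTGA (1.12%) were in none of the 7 windows. A match is only a run of letters, and no binding was measured. Slc22a8 and Slc22a6 are neighbours on chromosome 19, with 1 gene model, Gm36394, between them. Slc6a13 and Slc13a4 both lie on chromosome 6, Slc6a20a on chromosome 9 and Slc47a1 on chromosome 11.

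The deposited signals are MAS5 intensities on a linear scale. Not every probe set has a signal: cells were filled for 54% to 58% of them on A chip arrays, 33.6% to 42.6% on B chip arrays and 49.2% to 51.6% on rest arrays. The other cells are blank, for a reason that is not stated. A blank was not read as 0 in the tests of single probe sets, but it counts as 0 in the summed signals of the marker lists. The arrays of each table were scaled to a common mean, and levels are not compared between tables. For Brca1 itself, 1 probe set was listed throughout, at 41.3 ± 6.65 and 52.3 ± 8.73 for wild-type and knockout cortex (n = 3 each, log2 change 0.25, limma adjusted p = 0.496), and at 109.3 ± 6.64 and 113.1 ± 24.8 for the rest samples (n = 3 each, log2 change 0.03, limma adjusted p = 0.978). The exons it reads are not given, so it does not check the genotype labels. The Y-linked Eif2s3y was listed only on knockout arrays 1 and 2 of each table, so genotype and sex are partly joined. In a fit with a term for this sex marker, the knockout effect within a table is that of knockout array 3 alone against the wild-type arrays. No p-value of that fit is given. The cortical gene Emx1 was listed on all 6 B chip arrays at 368.6 to 443.4 and blank on all rest arrays, while the midbrain and hindbrain gene En2 was listed on all 6 rest arrays at 67.9 to 266.3. Emx1 and En2 thus differed between the arrays titled cortex and rest in the way the titles say. The separation was not complete: En2 was also listed on wild-type A chip array 3, at 49.4. Of 10 cortical projection neuron markers in the rest table, 9 were listed on at least 1 rest array. The summed signal of the hindbrain and midbrain markers ran from 2328.4 to 5804.0 over the wild-type rest arrays.

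In the knockout cortex 4 of the 6 carriers rose, and the other 2 had cortex signals on knockout arrays only. Slc6a13 rose 3.47-fold, Slc6a20a 2.24-fold, Slc13a4 2.12-fold and Slc22a8 1.65-fold on the log2(signal + 16) scale, which understates the change of dim genes. On the A chip the 3 member probe sets that could be tested were all called as higher, against 2.3% of the 12065 probe sets tested (3.02% in either direction). On the B chip the single member, Slc13a4, was called, against 0.23% of 7838 called as higher (0.281% in either direction). A probe set was tested where at least 2 arrays of each genotype listed it, and called at a limma adjusted p under 0.05 over its table. In tissue RNA a change in the number of cells of one kind and a change in RNA per cell cannot be told apart.

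Slc6a13, the GABA and taurine carrier, had the largest change. Its signal was 106.7 and 126.4 on wild-type cortex arrays 1 and 2 and blank on array 3. On the knockout arrays it was 525.3, 395.0 and 416.1. Every knockout array thus lay more than 3-fold above the listed wild-type arrays, and the wild-type array with no value is left out of the fit. The means were 116.5 ± 13.9 (SD, n = 2) and 445.5 ± 69.9 (n = 3), a log2 change of 1.79 (SE 0.146, 95% interval 1.47 to 2.12, limma adjusted p = 0.000172). This was the 7th largest rise among the 12065 probe sets. Without wild-type array 1, or without array 2, only 1 wild-type value is left and the probe set was not tested.

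Slc6a20a, the imino acid carrier, was listed on all 6 arrays. Its signal was 133.3, 144.7 and 153.8 in the wild-type cortices and 337.8, 368.8 and 319.9 in the knockouts. Both groups were tight, and the lowest knockout array was more than 2-fold above the highest wild-type array. The means of 143.9 ± 10.3 and 342.1 ± 24.7 (SD, n = 3 each) gave a log2 change of 1.16 (SE 0.107, 95% interval 0.93 to 1.40, limma adjusted p = 0.000202). Slc6a20b, its near copy in the mouse genome, was blank on all arrays of all tables that hold it.

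Slc13a4, the sulfate carrier, read 460.9, 345.1 and 492.0 on the wild-type B chip arrays and 1200.1, 931.5 and 703.6 on the knockout arrays. The groups did not overlap, as for 8.65% of the probe sets tested on that chip, and the knockout arrays spread widely. The means were 432.7 ± 77.4 and 945.1 ± 248.5 (SD, n = 3 each), a log2 change of 1.08 (SE 0.196, 95% interval 0.66 to 1.5, limma adjusted p = 0.0381). The call was lost without any 1 of the 3 wild-type arrays or without knockout array 1 or 2 (limma adjusted p from 0.0683 to 0.125). With a term for the sex marker, which sets knockout array 3 alone against the wild-type arrays, the log2 change was 0.70. Slc13a4 was called under 9 of 19 alternatives.

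Slc22a8, the organic anion transporter OAT3, read 128.2, 122.4 and 171.6 in wild-type cortex and 223.8, 249.4 and 247.7 in knockout cortex with its brighter probe set. Again all knockout arrays lay above all wild-type arrays, as for 11.6% of the probe sets tested on the A chip. The means were 140.7 ± 26.9 and 240.3 ± 14.3 (SD, n = 3 each), and the log2 change was 0.72 (SE 0.135, 95% interval 0.42 to 1.02, limma adjusted p = 0.0154). Without wild-type array 1 or 2, or knockout array 2 or 3, the limma adjusted p lay between 0.0551 and 0.0771. With the sex-marker term, which leaves knockout array 3 alone against wild type, the log2 change was 0.76. The second Slc22a8 probe set was blank on the 3 wild-type arrays and on knockout array 2, and read 138.9 and 117.9 on knockout arrays 1 and 3.

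**Figure D1:**
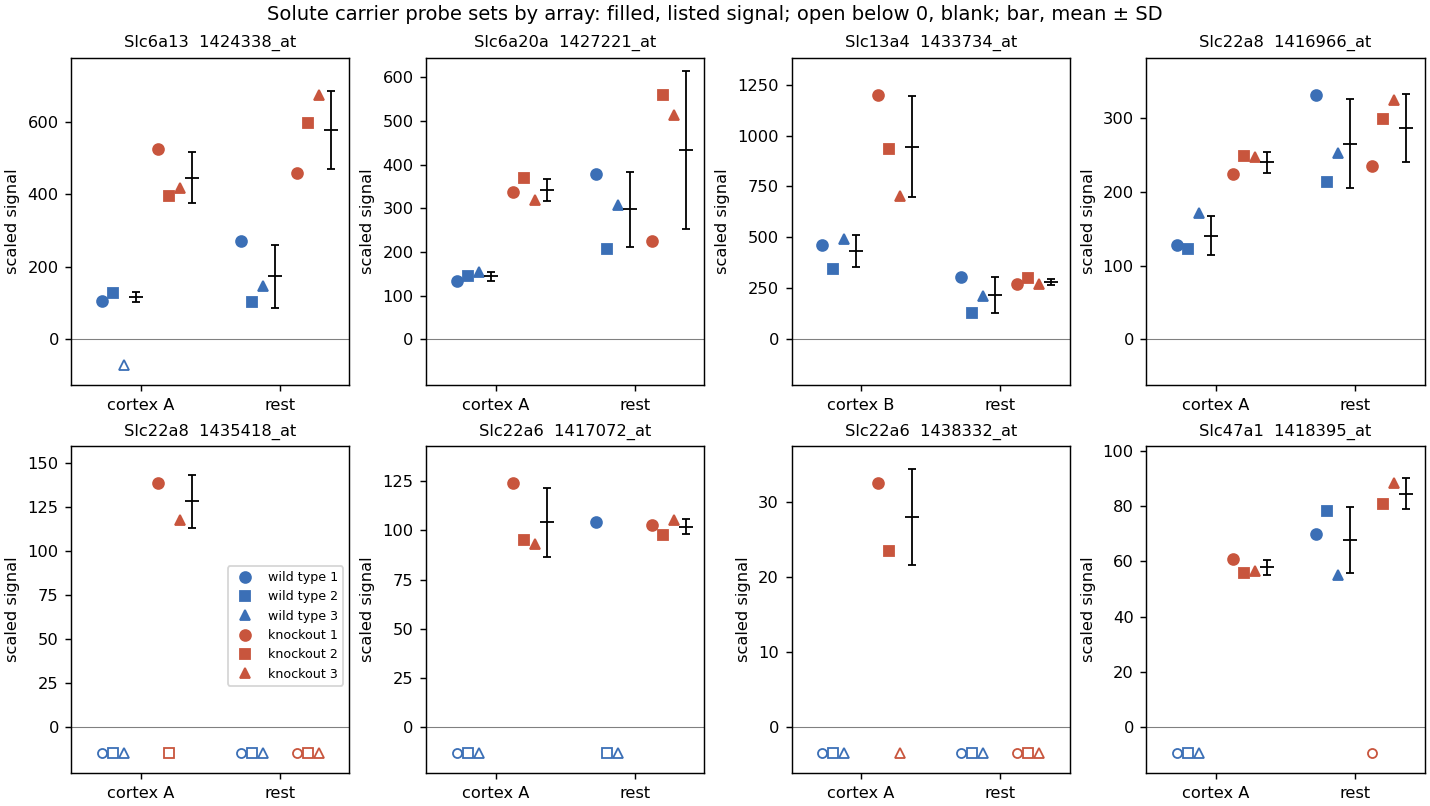
Scaled MAS5 signal (linear vertical axis) of the 8 probe sets on each array, wild type in blue and knockout in red, with the array number given by the symbol; open symbols below the zero line mark arrays with no listed value, and black bars give the mean ± SD where 2 or more arrays list a signal. The cortex and rest columns come from separately scaled tables and are not compared as levels; Slc6a13 separates the genotypes in both, while Slc6a20a, Slc13a4 and Slc22a8 separate them only in the cortex columns.

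The brighter Slc22a6 probe set and that of Slc47a1 were blank on all wild-type arrays of the A chip and could not be tested there. Slc22a6, the organic anion transporter OAT1, read 124.0, 94.8 and 93.0 on the knockout arrays, a mean of 104.0 ± 17.4 (SD, n = 3). Slc47a1, the organic cation exchanger MATE1, read 61.0, 55.9 and 56.5 on the knockout arrays, a mean of 57.8 ± 2.79 (SD, n = 3). Only 65 of 22626 probe sets of the chip, 0.287%, were listed on 3 knockout and 0 wild-type arrays, and 43, 0.19%, the other way round. No fold change is given against blanks. The dimmer Slc22a6 probe set was listed only on knockout arrays 1 and 2, at 32.6 and 23.6. Over the 7 member probe sets of the A chip, 8 of 21 wild-type values and 19 of 21 knockout values were listed. Of these probe sets 5 were listed on more knockout than wild-type arrays, against 6.24% of the chip.

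In the rest samples Slc6a13 rose and no other carrier was called. Its signal was 269.9, 102.9 and 147.5 on the wild-type arrays and 460.1, 596.7 and 674.5 on the knockout arrays, so the groups did not overlap (8.42% of the probe sets tested in the rest table do not overlap in this direction). The means of 173.4 ± 86.5 and 577.1 ± 108.6 (SD, n = 3 each) gave a log2 change of 1.73 (SE 0.276, 95% interval 1.11 to 2.35, limma adjusted p = 0.0394), 3.31-fold. It was the 4th largest rise among 21407 probe sets, of which 0.145% were called as higher and 0.313% in either direction. The call rested on all arrays but 1: without wild-type array 2 or 3, or without any knockout array, the limma adjusted p lay between 0.0814 and 0.155, at log2 changes of 1.44 to 1.88. With the sex-marker term, which leaves knockout array 3 alone against wild type, the log2 change was 1.96.

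For Slc6a20a the rest arrays read 377.7, 207.6 and 308.5 in wild type and 225.0, 560.0 and 514.5 in knockout. Knockout arrays 2 and 3 lay above every wild-type array, but knockout array 1 lay below wild-type arrays 1 and 3. The means were 297.9 ± 85.6 and 433.2 ± 182 (SD, n = 3 each), and the log2 change was 0.46 (95% interval -0.25 to 1.16, limma adjusted p = 0.677).

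Slc13a4 read 308.1, 131.2 and 211.5 on the wild-type rest arrays and 273.9, 300.4 and 270.4 on the knockout arrays. The knockout values were close together and lay inside the wild-type range. The log2 change was 0.42 (95% interval -0.11 to 0.96, limma adjusted p = 0.590), from 217.0 ± 88.6 to 281.6 ± 16.4 (SD, n = 3 each).

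Slc22a8 gave 331.9, 212.9 and 252.4 in wild type and 235.1, 299.5 and 325.0 in knockout with its brighter probe set. The groups overlapped. The means were 265.7 ± 60.6 and 286.5 ± 46.3 (SD, n = 3 each), with a log2 change of 0.11 (95% interval -0.27 to 0.50, limma adjusted p = 0.875). The second Slc22a8 probe set and the dimmer Slc22a6 probe set were blank on all 6 rest arrays, as were 39.9% of the probe sets of that table.

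The brighter Slc22a6 probe set was listed on wild-type array 1 at 104.3 and on the knockout arrays at 102.7, 97.4 and 104.9. The 1 listed wild-type value lay inside the knockout range, and the probe set was not tested. Slc47a1 read 69.8, 78.3 and 55.0 in wild type, was blank on knockout array 1 and read 80.6 and 88.3 on knockout arrays 2 and 3. Its log2 change was 0.27 (95% interval -0.15 to 0.70, limma adjusted p = 0.678), from 67.7 ± 11.8 (n = 3) to 84.5 ± 5.44 (SD, n = 2), with the blank array left out. Over all members, 16 of 24 wild-type and 17 of 24 knockout values were listed on the rest arrays. Only Slc22a6 was listed on more knockout than wild-type arrays there, as were 7.52% of that table's probe sets.

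On the rest arrays these members shared their lowest array, while the order of the other arrays differed between them. Wild-type array 2 was the lowest of the 6 for all 4 member probe sets listed on every rest array. How many other probe sets were lowest on that array was not counted. Wild-type array 1 was the highest for Slc22a8 and Slc13a4, but 3rd for Slc6a20a and 4th for Slc6a13. Knockout array 1 was the 5th of 6 for Slc22a8 and Slc6a20a, and 3rd for Slc6a13 and Slc13a4. The summed signal of 21 meningeal fibroblast markers was 20669, 13261 and 17886 on wild-type arrays 1 to 3 and 21102, 24628 and 24425 on the knockout arrays, so it too was lowest on wild-type array 2.

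**Figure D2:**
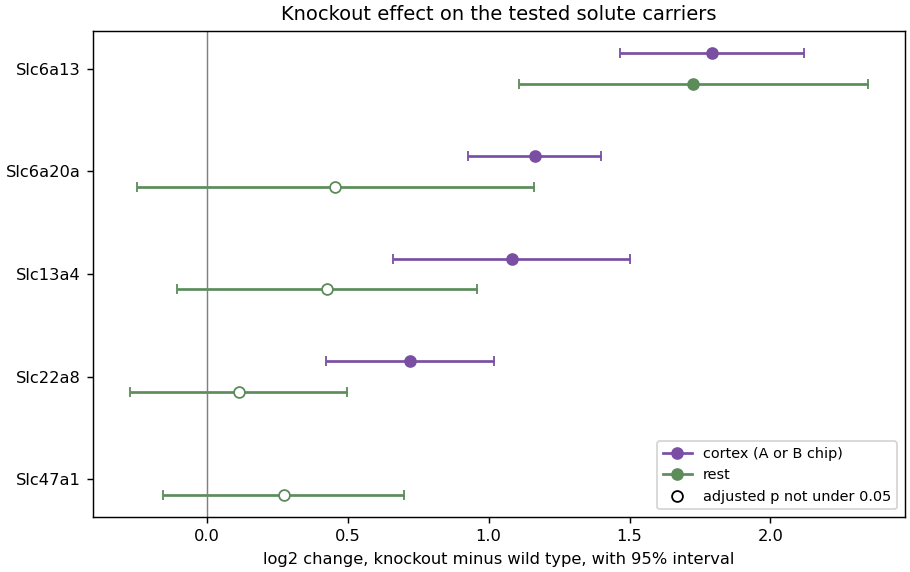
Log2 change in signal (knockout minus wild type, horizontal axis) of each tested carrier with its 95% interval from limma, cortex in purple and rest in green, filled where the adjusted p was under 0.05. Slc6a13 sits at 1.79 and 1.73 in the 2 tissues, and the other carriers called in cortex have rest estimates nearer to 0 with intervals that include it.

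Whether the knockout effect differed between cortex and rest was tested as an interaction. No member was called. The effect in rest minus that in cortex was -0.07 for Slc6a13 (SE 0.374, 95% interval -0.88 to 0.74, limma adjusted p = 0.968), -0.71 for Slc6a20a (SE 0.375, 95% interval -1.51 to 0.10, limma adjusted p = 0.531) and -0.61 for Slc22a8 (SE 0.232, 95% interval -1.11 to -0.11, limma adjusted p = 0.370). Slc22a8 alone of these had an unadjusted p under 0.05, at 0.0201, and 0.0502% of the 11959 probe sets tested were called. For Slc13a4, which needs the B chip, the difference was -0.66 (SE 0.335, 95% interval -1.37 to 0.05, limma adjusted p = 0.649, with 0 of 6563 probe sets called). A smaller effect in the rest samples is therefore not shown for any member after adjustment.

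Other carriers of the same families and of the brain barriers passed the test on the A chip only. Of 84 further genes in 7 lists, 32 could be tested there. Of these 2 rose and 0 fell, against 278 called as higher and 86 as lower among all 12065 probe sets. An unadjusted limma p under 0.05 was reached by 10 of the 32, against 1899 of the 12065. Their median log2 change was 0.03, against -0.01 over all probe sets tested. The 2 that rose were Slc16a1, a monocarboxylate carrier of the vessel wall (0.38, limma adjusted p = 0.0377), and Slc3a2, the heavy chain of the large neutral amino acid exchangers (0.28, limma adjusted p = 0.0476). Neither was called with median centring, without an intensity trend or with blanks set to a low signal. On the B chip 18 were tested and 0 called by limma, against 22 called of all 7838, with a median of 0.16. There 4 had an unadjusted limma p under 0.05, against 579 of the 7838. For the rest samples 52 were tested and 0 called by limma, against 67 called of all 21407, with a median of 0.01. There 6 had an unadjusted limma p under 0.05, against 2250 of the 21407.

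By family, the neighbours of each member can be set beside it. Of the GABA and taurine carriers tested on the A chip, the taurine carrier Slc6a6 stood at -0.09 on the log2 scale (limma adjusted p = 0.757) and the vesicular GABA carrier Slc32a1 at -0.67 (limma adjusted p = 0.0629), against 1.79 for Slc6a13. Slc6a12, a betaine and GABA carrier and close relative of Slc6a13, was blank on all A chip and rest arrays. The 4 other SLC6 carriers tested there ranged from -0.04 for Slc6a15 to 0.07 for Slc6a17. The 4 SLC22 carriers tested there lay between -0.17 for Slc22a12, a urate exchanger, and -0.06 for Slc22a23, while Slc22a8 stood at 0.72.

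Among genes of sulfate handling on the A chip, Papss2, which makes the activated sulfate donor, stood at 0.42 (limma adjusted p = 0.272) and the dicarboxylate carrier Slc13a3 at 0.29 (limma adjusted p = 0.379). The largest value on the B chip was that of the anion exchanger Slc26a7 (1.03, limma adjusted p = 0.0839). Among the 9 sulfate and SLC13 genes tested on the rest arrays, 1 had a positive log2 change. Of the 12 other brain barrier solute carriers tested on the A chip, 10 had positive log2 changes, with a median of 0.26. Their summed signal was 5897.1 to 6862.6 on the wild-type and 7159.5 to 7707.5 on the knockout arrays (exact two-sided permutation p = 0.1). The list ran from -0.40 for the monoamine carrier Slc29a4 (limma adjusted p = 0.155) to 0.46 for the glucose carrier Slc2a1 (limma adjusted p = 0.0806). Of 4 drug efflux pumps tested there none was called, and they ran from -0.09 for Abcc5 to 0.45 for Abcg2 (limma adjusted p = 0.102). The 3 members called on the A chip, at 0.72 to 1.79, had larger log2 changes than any of the 32 related genes tested there. This was not so in the rest samples. There Slc6a5 (0.87, limma adjusted p = 0.209) and Slc22a15 (0.51, limma adjusted p = 0.436) lay above every tested member but Slc6a13.

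**Figure D3:**
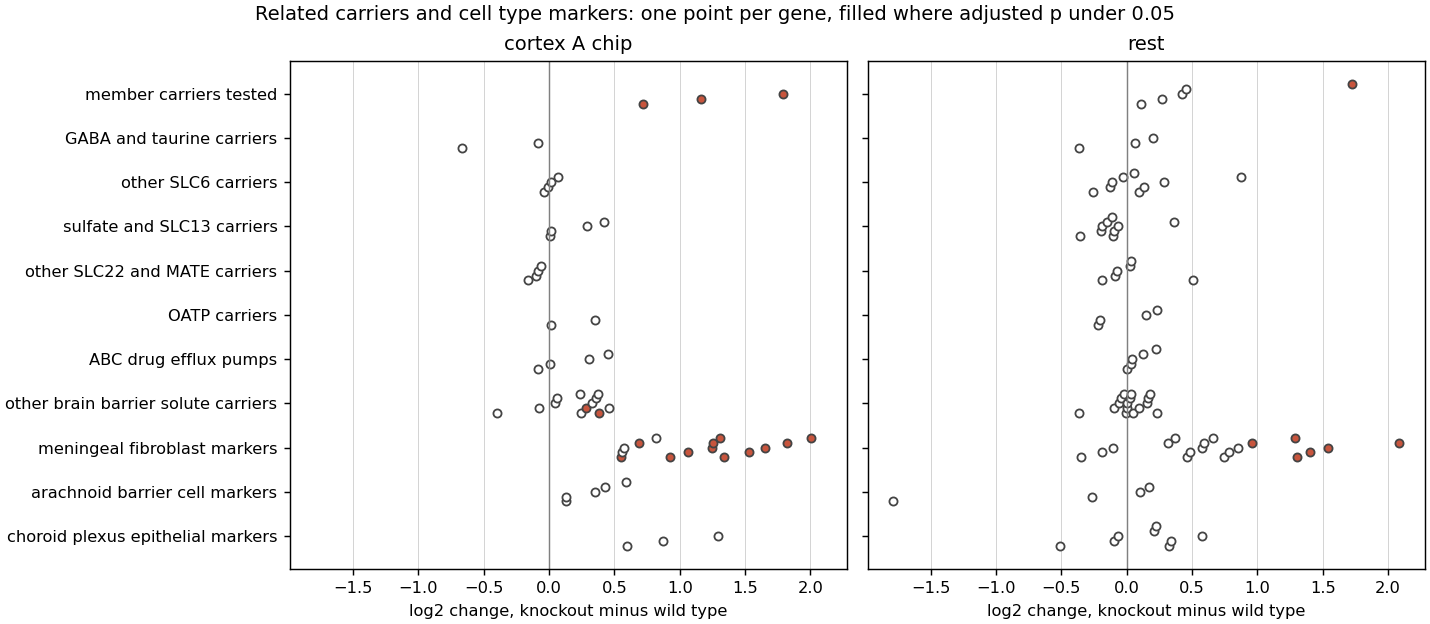
Log2 change in signal (knockout minus wild type, horizontal axis) of the tested members, of the related carriers by family and of 3 marker lists, 1 point per gene, in the cortex A chip (left) and the rest table (right), filled where the limma adjusted p was under 0.05. The members and the meningeal fibroblast markers lie to the right of the related carriers in the cortex panel, and in the rest panel only Slc6a13 and 6 meningeal markers are filled among the genes shown.

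Markers of several cell types moved with the carriers, and their part in the carriers' changes was not tested. Meningeal fibroblast markers had the largest median of the lists on the A chip and the rest arrays. On the A chip 12 of 15 tested rose and 0 fell, with a median log2 change of 1.25, led by Col3a1 (2.01), Col1a1 (1.82), Cxcl12 (1.65) and Col1a2 (1.53). The summed signal of the list was 7538.6 to 8253.4 on the wild-type and 15977 to 18951 on the knockout arrays, and none of the 21 genes was blank throughout. On the B chip 1 of 3 rose, Tbx18, a transcription factor of meningeal and mural cells (2.23), and the median of 1.03 lay below that of the choroid plexus markers, 1.25. On the rest arrays 6 of 19 rose and 0 fell, with a median of 0.66, led by Tbx18 (2.09), Lama1 (1.54), Col3a1 (1.40) and Lum (1.30). Foxc2 was blank on all rest arrays. The rest count with the sex-marker term is not given, since that term leaves knockout array 3 alone against wild type.

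Arachnoid barrier cell markers gave no call on any table. On the A chip 5 were tested, all with positive log2 changes and a median of 0.35, and their summed signal was 562.0 to 665.2 on the wild-type and 849.6 to 960.3 on the knockout arrays. On the rest arrays 4 were tested with a median of -0.08, and the sums overlapped, at 1598.0 to 1751.9 and 1402.4 to 1610.7. Dpp4 was blank throughout both tables. Cdh1, the cadherin of arachnoid barrier cells, was blank on the wild-type cortex arrays and read 63.5 and 39.0 on knockout arrays 1 and 3. In the rest samples it was listed only on knockout arrays 2 and 3, at 58.1 and 58.6. Cldn11, which oligodendrocytes also express, read 64.2 ± 9.85 and 92.1 ± 16.9 on the A chip (n = 3 each, log2 change 0.43, limma adjusted p = 0.218), and 472.1 ± 52.9 and 139.1 ± 87.1 in the rest table (n = 3 each, log2 change -1.79, limma adjusted p = 0.0521).

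Choroid plexus markers were higher on knockout cortex arrays, with wide spread. The summed signal on the A chip was 2016.7 to 5295.1 in wild type and 5734.3 to 6459.9 in knockout, and 0 of 3 tested genes were called, with a median log2 change of 0.87. Of these, Folr1 stood at 1.29 (limma adjusted p = 0.0539) and Calml4 at 0.87 (limma adjusted p = 0.232), each listed on 2 wild-type arrays. Ttr, the abundant secretory product of the plexus, read 4598.3, 2016.7 and 5127.0 on the wild-type and 5555.5, 5746.1 and 5182.4 on the knockout A chip arrays (limma adjusted p = 0.312). On the B chip, which carries Slc13a4, the sums were 3995.9 to 14084 and 18250 to 26931, and Kcnj13 was called (1.25, limma adjusted p = 0.0414). Cldn2, F5 and Otx2 were blank on every A chip array.

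Choroid plexus sums on the rest arrays overlapped, at 6771.2 to 8240.9 and 2370.4 to 10148, and 0 of 8 genes were called. Ttr was lowest on knockout array 3, at 1885.9, the array on which Slc6a13 was highest, at 674.5. Kidney epithelial markers, read because several members are kidney carriers, were blank on all rest arrays, and 1 of them was listed on 1 A chip array, at 23.9. Brain endothelial markers also moved in the cortex, where 4 of 11 rose with a median of 0.40, as did 6 of 10 microglia and border macrophage markers with a median of 0.70 and 2 of 6 pericyte and smooth muscle markers with a median of 0.37. These counts are not given for the sex-marker term, which leaves 1 knockout array against wild type. On the rest arrays 0 genes of these 3 lists were called by limma, with medians of 0.21, 0.26 and -0.04. The endothelial marker Cldn5 stood at 0.47 on the A chip (limma adjusted p = 0.0133) and at 0.13 in the rest samples (limma adjusted p = 0.721).

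Since the meningeal markers rose with the carriers, each carrier was also read as a percent of the summed meningeal fibroblast marker signal of its own array, a measure chosen after the data were seen. Ptgds alone averaged 3136.2 of the wild-type A chip sum of 7888.0, and its log2 change there was 0.55. Col3a1 (2.01) and Col1a1 (1.82) on the A chip and Tbx18 (2.09) in rest rose more than Slc6a13. The other markers tested in those tables rose less or fell. Slc6a13 was higher on every knockout array on this measure too, also with Ptgds left out of the sum. In the cortex it came to 1.42% and 1.61% on the listed wild-type arrays and to 2.77%, 2.33% and 2.60% on the knockout arrays. The means were 1.51% ± 0.134 (SD, n = 2) and 2.57% ± 0.223 (n = 3; exact two-sided permutation p = 0.1, the smallest this design allows). In the rest samples it came to 1.31%, 0.776% and 0.825% against 2.18%, 2.42% and 2.76%, with means of 0.969% ± 0.293 and 2.45% ± 0.292 (SD, n = 3 each, exact two-sided permutation p = 0.1).

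Slc22a8 was lower on this measure in the means of both tables. Its share was 1.70%, 1.55% and 2.08% on the wild-type and 1.18%, 1.47% and 1.55% on the knockout cortex arrays, with means of 1.78% ± 0.271 and 1.40% ± 0.194 (SD, n = 3 each, exact two-sided permutation p = 0.1). The lowest wild-type and the highest knockout array were equal to 3 digits. In the rest samples the share was 1.61%, 1.61% and 1.41% against 1.11%, 1.22% and 1.33%, with means of 1.54% ± 0.112 and 1.22% ± 0.108 (SD, n = 3 each, exact two-sided permutation p = 0.1). Its log2 change in cortex signal, 0.72, lay below the median of the meningeal markers tested there, 1.25.

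For the other carriers the genotypes overlapped when read as a percent of the meningeal markers. Slc6a20a came to 1.77%, 1.84% and 1.86% in wild-type and 1.78%, 2.18% and 2.00% in knockout cortex (exact two-sided permutation p = 0.3). In the rest samples the p was 0.9, with knockout array 1 at 1.07% and the other two knockout arrays at 2.27% and 2.11%. Slc13a4 averaged 1.22% ± 0.253 and 1.21% ± 0.0958 in the rest samples (SD, n = 3 each, exact two-sided permutation p = 1.0). Slc47a1 overlapped there as well. As a log2 difference from the mean of the markers, however, both were lower on every listed knockout array of the rest samples, by -0.38 for Slc13a4 (exact two-sided permutation p = 0.1) and -0.55 for Slc47a1 (exact two-sided permutation p = 0.3). On the B chip, which holds 6 of the markers, with 3 listed on all its arrays, Slc13a4 came to 69.8% ± 23.5 and 53.0% ± 12.5 of the marker sum (SD, n = 3 each, exact two-sided permutation p = 0.4). These p-values were not adjusted, since no value of 0.1 can pass a threshold of 0.05.

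**Figure D4:**
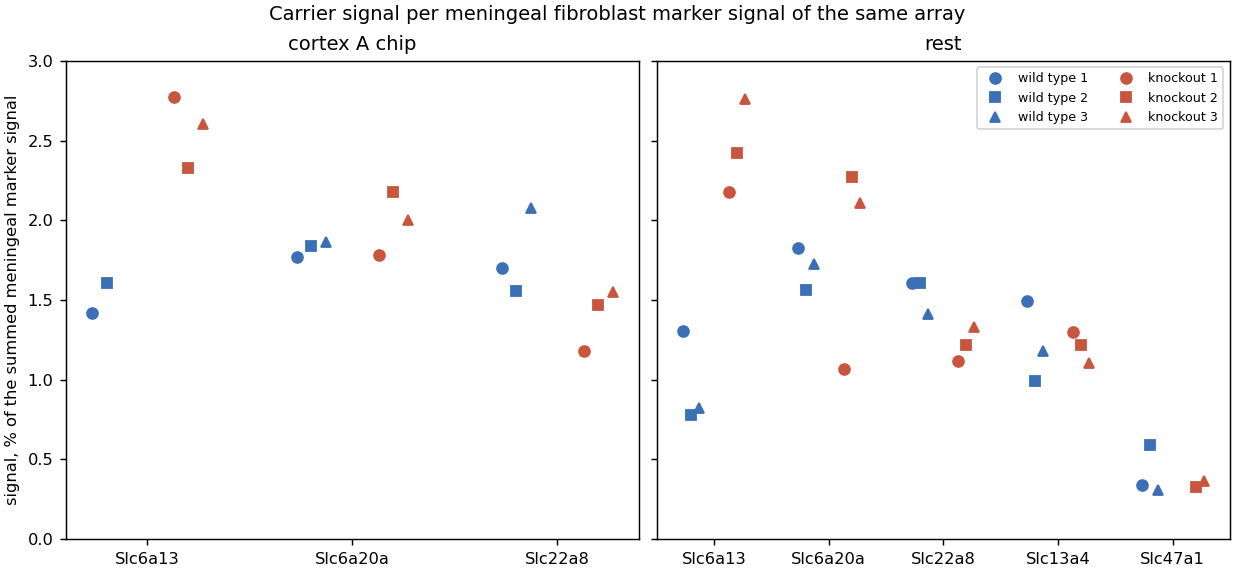
Signal of each carrier as a percent of the summed signal of 21 meningeal fibroblast markers on the same array (vertical axis), for wild type in blue and knockout in red, with the array number given by the symbol, in the cortex A chip (left) and the rest table (right). Slc6a13 is higher on every knockout array of both panels (2.33% to 2.77% against 1.42% to 1.61% in cortex), and Slc22a8 is not above its wild-type arrays on any knockout array.

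Only Slc22a8 and Slc6a20a were listed on all 12 arrays of the A chip and the rest table, so only their patterns across arrays could be followed. With each table centred on its own mean, their log2 signals had a Pearson r of 0.903 over the 12 arrays. Arrays of both genotypes enter, so any gene that is higher in knockout shares part of this pattern, and no test is given. The genes whose patterns were most like that of Slc22a8 among 10065 probe sets were Vim (0.961), Fbln5 (0.951), Sptlc1 (0.943) and Ahnak (0.943). For Slc6a20a they were Cds2 (0.970), Thbd (0.960), Serping1 (0.957) and Gja1 (0.953). Vim encodes the intermediate filament vimentin, Fbln5 an elastic fibre protein, Thbd thrombomodulin, Serping1 an inhibitor of complement, and Gja1 a gap junction connexin. The 10 genes most like the mean of both members were Thbd (0.975), Serping1 (0.969), Dab2 (0.958), Ahnak (0.956), Itm2a (0.949), Fmod (0.948), Rrbp1 (0.945), Denn2b (0.941), Gja1 (0.936) and Fbln5 (0.935).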

How the data were processed

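RNA extracted with TRIZOL was hybridised to 18 Affymetrix arrays by the standard protocol, per the labels. The authors deposited MAS5 intensity values on a linear scale, per the submitters' processing notes; version, target level and the reason for blanks are not given in the sources used here. The members and gene lists were chosen with earlier results of these data known.

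Scaling brought the 2%-trimmed mean, over probe sets listed throughout a table, to 1 level for its 6 arrays (factors 0.9477 to 1.059), and log2(signal + 16) was taken. Control probe sets were left out. Probe sets with exactly 1 gene in the array annotation, with symbols updated through RefSeq, carry a name (20380, 14661 and 34945 in the A chip, B chip and rest tables). Those listed on at least 2 arrays per genotype were tested with limma 3.58.1 in R 4.3.3 (lmFit, eBayes with trend, no covariate), with Benjamini-Hochberg adjustment over each table and a threshold of 0.05. The fit was tested on simulated data. The difference between rest and cortex is an interaction in a joint limma fit with a table term. Per list, the brightest tested probe set stands for a gene, and for sums, with blanks as 0, the brightest on the table. Named are all member probe sets, the defining markers, the genes most like the members, and up to 4 called genes each way per list of carriers, meningeal or choroid plexus markers. Called genes of the endothelial, pericyte and microglia lists, other than Cldn5, are given as counts only. Carriers of the related lists named without a call, and Emx1, En2, Eif2s3y, Folr1, Calml4, Cldn2, F5, Otx2, Dpp4, Ptgds and Foxc2, were chosen after their values were seen. The number of arrays limits the precision. Alternatives were other scalings, offsets of 1 and 64, filters, a low signal for blanks, other eBayes settings, array weights, a replicate block, a sex-marker term and leaving out each array.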

Additional observations from a re-analysis of the deposited data

How the results depend on the processing

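The A chip count of called members, 3, came to 1 without wild-type array 1 or 2, where Slc6a13 could not be tested and Slc22a8 lost its call (limma adjusted p = 0.0658 and 0.0551). It lay between 2 and 4 otherwise (4 with blanks set to a low signal, where the brighter Slc22a6 probe set was called too). Leaving out 1 array gave 1 to 3. The B chip count, 1, became 0 with quantile normalization (limma adjusted p of Slc13a4 0.107), with blanks set to a low signal (0.147), without an intensity trend (0.170) and with a replicate block (0.0767), and ranged from 0 to 1 when 1 array was left out. The rest count, 1, became 0 with a level filter at the 60th percentile (limma adjusted p of Slc6a13 0.0502), with blanks set low (0.0788), without a trend (0.147) and with robust eBayes (0.0806), and ranged from 0 to 1 when 1 array was left out. The interaction counts stayed at 0. The log2 change of Slc6a13 ranged from 1.49 to 2.16 on the A chip over 16 alternatives and from 1.44 to 2.07 in rest over 19, that of Slc6a20a from 0.97 to 1.24, of Slc22a8 from 0.58 to 0.86 and of Slc13a4 from 0.70 to 1.28 in the cortex, over 19 each.

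These values changed sign, and the cause was not tested. Slc47a1 in rest was -0.016 with blanks set low, and Slc22a8 in rest was -0.026 without wild-type array 2. The rest minus cortex difference of Slc6a13 was 0.0049 with quantile normalization, 0.053 without cortex knockout array 1, 0.28 without rest wild-type array 1 and 0.084 without rest knockout array 1. The knockout minus wild-type difference of Slc6a20a relative to the meningeal markers was -0.33 in cortex and -0.17 in rest with the sum taken without Ptgds, and -0.35 in rest as a log2 difference from the mean of the markers. With blanks set low, the knockout minus wild-type log2 value on the A chip was 1.05 for the brighter Slc22a6 probe set (limma adjusted p = 0.00714). The dimmer Slc22a6 probe set went the other way, at -0.25 (limma adjusted p = 0.561). Slc47a1 stood at 0.36 (limma adjusted p = 0.155) and the second Slc22a8 probe set at 0.88 (limma adjusted p = 0.34).

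Same-numbered wild-type and knockout arrays were not taken as pairs: the correlations of their deviations ran from -0.009 to 0.019 (A chip), 0.072 to 0.159 (B chip) and 0.023 to 0.251 (rest). On the B chip every array correlated best with its own number (different numbers gave -0.164 to 0), which is a hint from the data and not from the design. On the A chip and in rest this was not so. With a replicate block 3 members were called on the A chip, 0 on the B chip and 1 in rest, and the counts over all probe sets were 299, 12 and 142, against 364, 22 and 67 without it. Leaving the sex-marker term aside, the whole-table counts ranged from 186 to 385, 9 to 58 and 11 to 142. They were 186 on the A chip without knockout array 2, 9 and 11 on the B chip and in rest without a trend, and 58 on the B chip with array weights.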
